A study of Mus musculus with 7 samples.

Results

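The genes described here are the ligands and receptors of the tumour necrosis factor (TNF) superfamily, the family to which OX40L and its receptor OX40 belong. They were taken as every gene of the array whose platform symbol begins with Tnfsf or Tnfrsf, plus Tnf, Lta, Ltb, Ltbr, Cd40, Cd40lg, Cd27, Cd70, Fas, Fasl, Eda, Edar, Eda2r and Ngfr. This gave 45 of the 23185 genes with a symbol, with 1 probe set each: 17 ligands, 27 receptors and the antisense transcript Tnfsf13os. Lesional skin came from male mice of the C57BL/6 background, 9 weeks of age, all of which had received bleomycin injections for 3 weeks. OX40L knockout (KO, ox40l-/-) skin gave 4 arrays and OX40L wild type (WT, ox40l+/+) skin gave 3. Bleomycin injection is a way to induce skin fibrosis in mice, and with no untreated skin in the comparison only the effect of genotype under bleomycin was measured. The labels do not state how the knockout allele was made or which part of the gene it removes.

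Ligands of this family are mostly trimeric membrane proteins of immune and epithelial cells, and some of them are also released in soluble form. Their receptors signal either through TRAF adaptors to NF-kB or, where they carry a death domain, also to caspases. OX40L is made by antigen-presenting and other cells and sustains activated T cells that carry OX40. In skin, the family is known for T cell costimulation, inflammation, keratinocyte death and, through ectodysplasin, the development of hair follicles.

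Not all arrays were alike. Across probe sets, log2 values had an SD of 1.38 to 1.48 on the KO arrays and 1.72, 1.46 and 1.22 on WT arrays 1, 2 and 3. Pairs with WT array 1 or 3 correlated at 0.761 to 0.914 across probe sets, and all other pairs at 0.956 to 0.968. Many differences rest on WT array 1 or 3, and for the genes the text turns on they are given with and without these arrays. The skin label was borne out by its markers: 6 of 6 keratinocyte markers and 5 of 6 fibroblast markers lay in the upper 10% of genes by mean value. Skeletal muscle markers were also bright, with 6 of 6 in the same range. WT array 1 had the highest mean log2 level of the keratinocyte markers, at 7.65 to 7.88 on the KO arrays, against 8.53, 7.67 and 6.91 on WT arrays 1, 2 and 3. WT array 3 was the lowest for keratinocyte, fibroblast, adipocyte, skeletal muscle, macrophage (4.80) and endothelial (4.44) markers. It was the highest for B cell (3.57) and NK cell (4.38) markers. The part of the smaller SD of WT array 3 in these levels was not tested. Fibroblast markers were at 6.42 to 7.05 in KO skin and 5.496 on WT array 3, adipocyte markers at 6.40 to 7.004 in KO skin and 5.96 on WT array 3, and skeletal muscle markers at 9.14 to 9.78 in KO skin and 7.60 on WT array 3. The part of these markers in the values of the superfamily was not tested.

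No gene of the superfamily passed the test between genotypes. At a limma adjusted p under 0.05 the count was 0 of 45, where 0.00431% of all genes (1 of 23185) passed, and the smallest adjusted p of a member was 0.9995. At an unadjusted p under 0.05 the count was 1 of 45, against 1.88% of all genes (1.03% higher and 0.854% lower in KO); this member was lower in KO. The genotypes did not overlap in 1 of 45 members, against 1.91% of all genes (1.1% higher and 0.815% lower in KO), the same gene, so both shares lay near the background. Differences (KO minus WT, log2) had a median of 0.020 over the members and of 0.0096 over all genes, with 24 members above 0 and 21 below. The member median was -0.035 without WT array 1 and 0.10 without WT array 3, where the median of all genes was -0.019 and 0.078. In 44 of 45 members the difference lay between -0.5 and 0.5, and in 32 of 45 it was smaller than its own standard error (SE).

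The intervals come from a fit with 1 variance for both genotypes. The WT SD was larger than the KO SD in 31 of 45 members (68.9%, against 76.9% of all genes). With only 3 WT arrays, the intervals of such genes can be too narrow, so they are no firm bound on a difference. The 95% interval lay wholly within -1 to 1, that is within 2-fold either way, in 38 of 45 members and in 73.7% of all genes. The other 7 members were Tnfsf8, Ltb, Tnfrsf17 and Edar, whose intervals reached 1.12, 1.07, 1.09 and 1.04, and Tnfrsf1a, Tnfrsf19 and Tnfrsf23, whose intervals reached -1.92, -1.31 and -1.24. The median SD of a member within a genotype was 0.227 in KO and 0.318 in WT, against 0.188 in KO and 0.387 in WT over all genes.

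**Figure D1:**
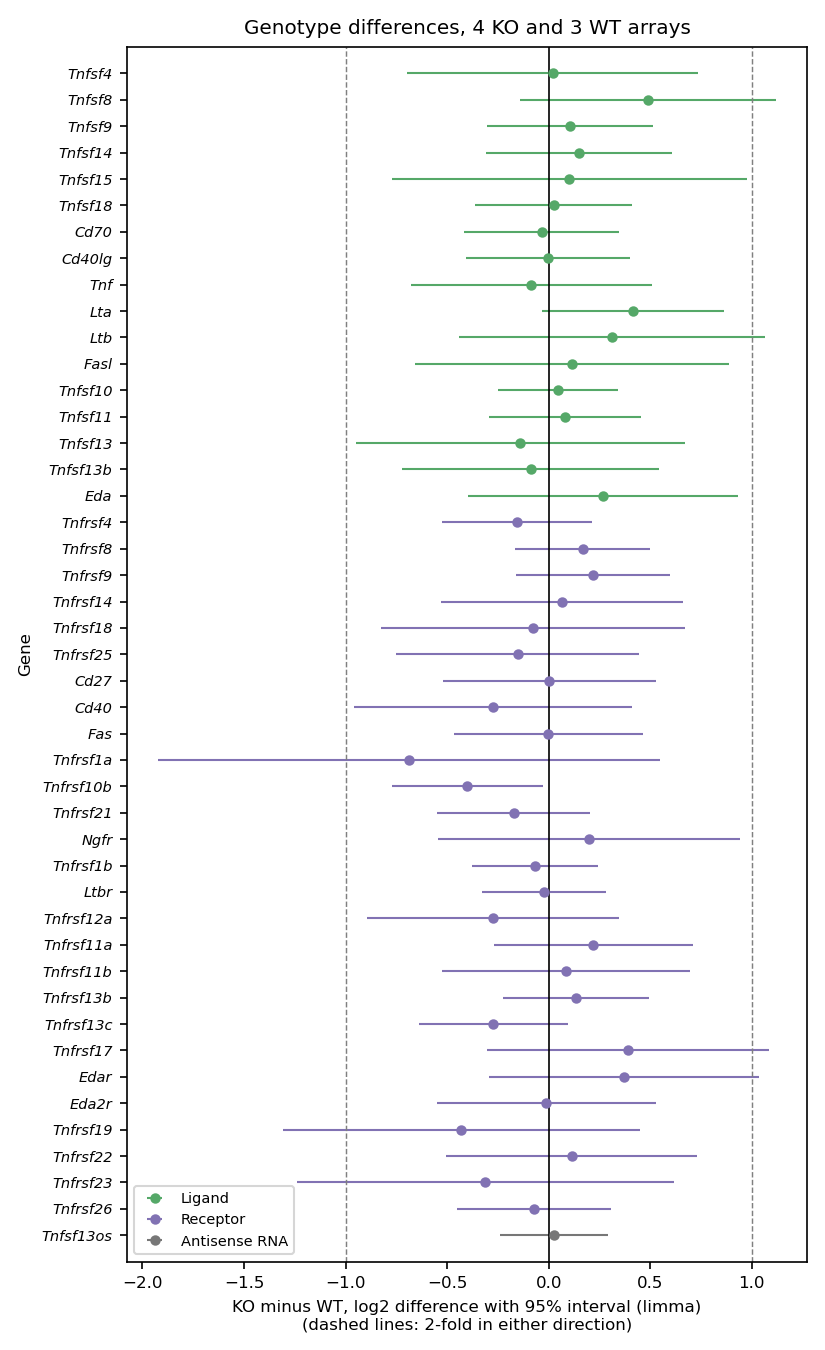
KO minus WT difference on the log2 scale for each of the 45 genes (points) with its 95% interval from limma (bars), 4 KO and 3 WT arrays; dashed lines mark 2-fold. The intervals of 44 genes cross 0, that of Tnfrsf10b runs from -0.77 to -0.027, and Tnfrsf1a has the widest.

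Among the costimulatory ligands, which act on T cells and antigen-presenting cells, the targeted gene itself did not separate the genotypes. Tnfsf4 (OX40L) had log2 values of 3.35, 2.82, 2.81 and 2.81 on KO arrays 1 to 4, against 2.53, 2.60 and 3.65 on WT arrays 1 to 3. The highest and the lowest of the 7 values were both WT, and KO array 1 stood above the other 3 KO arrays. The difference was 0.020 (95% interval -0.70 to 0.74). It was -0.18 without WT array 1, 0.38 without WT array 3 and 0.35 without both. The mean of Tnfsf4 lay at percentile 29.2 of all genes, in the dim part of the range, and whether so low a signal could show a loss was not tested. It is also not known here whether the probes fall inside the deletion, so these values do not check the labels.

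Tnfsf8 (CD30 ligand, a ligand of activated lymphocytes) had the largest positive difference of the superfamily. Its log2 values were 3.74, 4.00, 3.83 and 3.54 on KO arrays 1 to 4, against 2.65, 3.49 and 3.72 on WT arrays 1 to 3. WT array 1 was far below the other 6, while WT array 3 lay inside the KO range. The difference was 0.49 (SE 0.27), with an unadjusted p of 0.109 in limma, and was 0.17 without WT array 1 and 0.29 without WT arrays 1 and 3.

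The other costimulatory ligands differed by less. Tnfsf14 (LIGHT) differed by 0.15 (SE 0.20), Tnfsf9 (4-1BB ligand) by 0.11 (SE 0.17), Tnfsf15 (TL1A, which acts on T cells through Tnfrsf25) by 0.10 (SE 0.37) and Tnfsf18 (GITR ligand) by 0.024 (SE 0.16). Cd70, the ligand of CD27, differed by -0.035 (SE 0.16), and Cd40lg, by which helper T cells activate B cells and dendritic cells, by -0.0016 (SE 0.17). Of the 8 costimulatory ligands, 6 were above 0 and 2 below, and none had an unadjusted p under 0.05. Without WT array 1 the differences of Tnfsf14, Tnfsf9, Tnfsf15, Tnfsf18, Cd70 and Cd40lg were -0.017, 0.016, -0.31, -0.050, -0.11 and -0.16. The 6 to 2 split rested partly on WT array 1, the lowest of the 7 arrays for 6 of these 8 genes: the median difference was 0.063 with all arrays and -0.080 without it.

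Among the receptors of these ligands, Tnfrsf4 (OX40) was at 4.65, 4.64, 4.40 and 4.79 on KO arrays 1 to 4, against 4.67, 4.66 and 4.99 on WT arrays 1 to 3. The KO and WT values overlapped, the highest being WT array 3 and the lowest KO array 3. The difference was -0.16 (95% interval -0.53 to 0.22), and -0.039 without WT arrays 1 and 3. Tnfrsf9 (4-1BB, a receptor of activated T cells) was at 3.41, 3.66, 3.46 and 3.41 in KO skin, against 2.98, 3.41 and 3.41 in WT skin, a difference of 0.22 (SE 0.16). Here 4 of the 7 arrays had exactly the same value, and WT array 1 was below the rest; without it the difference was 0.073. Tnfrsf18 (GITR, abundant on regulatory T cells) spread more, at 4.85, 4.15, 4.15 and 4.37 in KO skin, against 5.06, 4.50 and 3.81 in WT skin, with a difference of -0.076 (SE 0.32), and WT held both its highest and its lowest array. Its difference was 0.23 without WT array 1 and -0.40 without WT array 3.

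Cd40, the receptor by which antigen-presenting cells receive T cell help, differed by -0.27 (SE 0.29), and this came from 1 array. Its values were 3.80, 4.04, 3.60 and 3.54 in KO skin, against 3.71, 3.62 and 4.73 in WT skin, and without WT array 3 the difference was 0.078. Tnfrsf8 (CD30) differed by 0.17 (SE 0.14), Tnfrsf25 (DR3) by -0.15 (SE 0.26), Tnfrsf14 (HVEM, the receptor of LIGHT) by 0.065 (SE 0.25) and Cd27 by 0.0039 (SE 0.22). Of the 8 costimulatory receptors, 4 were above 0 and 4 below. Without WT array 1 the differences of Tnfrsf8, Tnfrsf25, Tnfrsf14 and Cd27 were 0.060, -0.42, -0.089 and -0.21, and without WT array 3 they were 0.25, 0.099, 0.34 and 0.054.

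**Figure D2:**
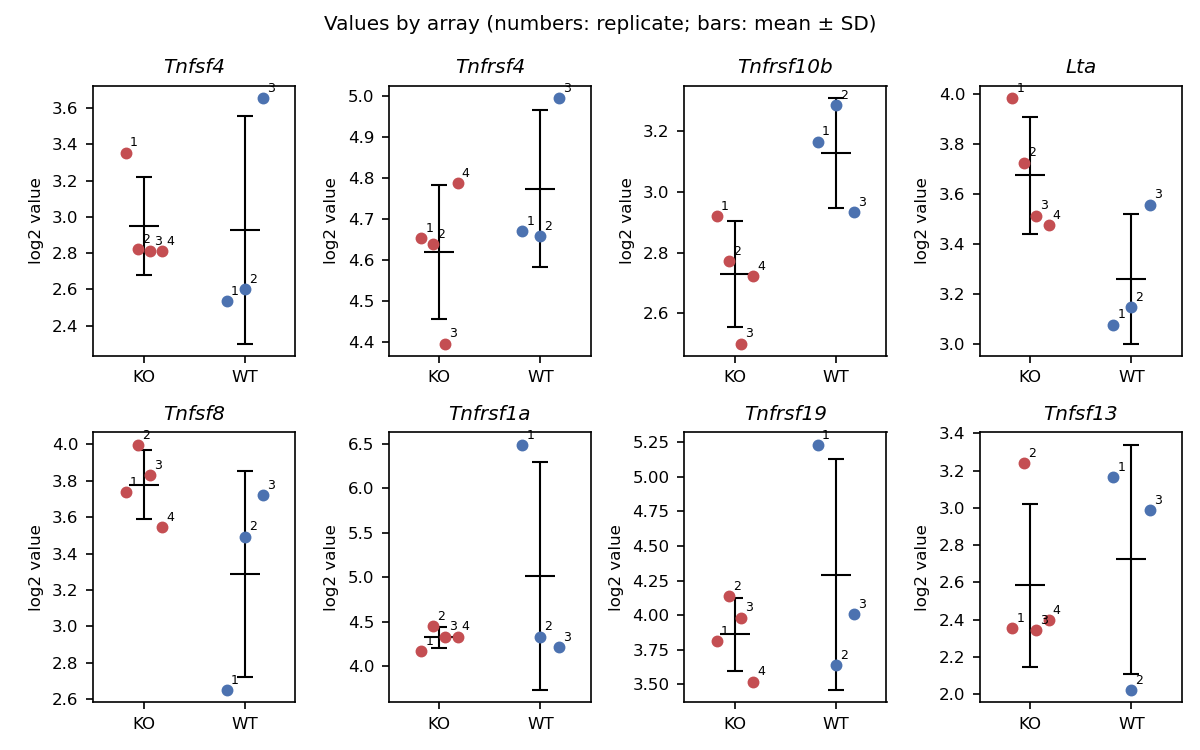
Log2 values of 8 genes on each array (points, numbered by replicate; KO left, WT right), with the mean and SD of each genotype (bars). Only Tnfrsf10b shows no overlap of the genotypes, while single WT arrays set the WT mean and SD of Tnfsf4, Tnfsf8, Tnfrsf1a and Tnfrsf19.

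The inflammatory ligands Tnf, Lta and Ltb lie next to each other on chromosome 17, with no other protein-coding gene between them in the RefSeq table. Tnf is the founding cytokine of the family, Lta encodes lymphotoxin alpha, and Ltb encodes the membrane subunit with which lymphotoxin alpha signals through Ltbr. Their promoters are shown because this block of neighbours holds Lta, with one of the largest differences, beside Tnf, with a difference near 0; the genotypes overlapped in both. Each is the RefSeq window of GRCm38.p6 from 250 bases before to 50 after the start of transcription, read 5′ to 3′ on the gene's strand: Lta at chr17:35205302-35205601 (minus), Tnf at chr17:35201958-35202257 (minus) and Ltb at chr17:35194257-35194556 (plus). Capitals mark TATAAA or the NF-kB consensus, searched on both strands.
Lta: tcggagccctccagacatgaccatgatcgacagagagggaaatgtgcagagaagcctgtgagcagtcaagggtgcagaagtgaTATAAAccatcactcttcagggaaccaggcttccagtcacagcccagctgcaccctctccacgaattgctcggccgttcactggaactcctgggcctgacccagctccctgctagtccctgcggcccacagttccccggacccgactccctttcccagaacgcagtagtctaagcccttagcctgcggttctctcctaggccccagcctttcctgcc
Tnf: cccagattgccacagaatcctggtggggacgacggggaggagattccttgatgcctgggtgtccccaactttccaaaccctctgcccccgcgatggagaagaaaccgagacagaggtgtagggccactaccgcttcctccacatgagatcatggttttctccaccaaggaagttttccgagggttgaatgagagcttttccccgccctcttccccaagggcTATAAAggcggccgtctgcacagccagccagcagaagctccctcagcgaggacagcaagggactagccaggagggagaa
Ltb: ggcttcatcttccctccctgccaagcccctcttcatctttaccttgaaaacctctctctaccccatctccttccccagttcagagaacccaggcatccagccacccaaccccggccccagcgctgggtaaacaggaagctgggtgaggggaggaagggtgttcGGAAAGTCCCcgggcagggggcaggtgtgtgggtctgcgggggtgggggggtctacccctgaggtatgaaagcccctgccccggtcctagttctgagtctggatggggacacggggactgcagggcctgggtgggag
In Tnf a TATAAA begins at -29 from the start site and in Lta at -167, and in Ltb the NF-kB consensus begins at -87. Such windows were given for 35 of the 45 genes (39 windows). The NF-kB consensus was found in 4 of the 39 (10.3%), those of Ltb, Tnfrsf8, Tnfrsf9 and Tnfrsf25, against 8.46% of 32851 windows of all genes. TATAAA was found in 7 of the 39 (17.9%), against 13.6% of all. A match is a description of letters, not a binding site.

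Lta had the second smallest p of the superfamily. Its log2 values were 3.98, 3.73, 3.51 and 3.48 on KO arrays 1 to 4, against 3.08, 3.15 and 3.56 on WT arrays 1 to 3. Both WT arrays 1 and 2 lay below all KO arrays, and WT array 3 lay between KO arrays 2 and 3. The difference was 0.41 (SE 0.19), with an unadjusted p of 0.0659 in limma and the same sign under every alternative run, from 0.31 without KO array 1 to 0.56 without WT array 3. Tnf was at 4.75, 4.45, 4.35 and 3.89 in KO skin, against 4.09, 4.45 and 4.80 in WT skin, and Ltb at 3.39, 3.74, 3.88 and 3.17 in KO skin, against 2.53, 3.39 and 3.77 in WT skin. Tnf overlapped almost wholly between the genotypes, with a difference of -0.085 (SE 0.25). Ltb differed by 0.31 (SE 0.32), a value that WT array 1 set: without it the difference was -0.035. Neither the difference among these 3 neighbours nor their common behaviour was tested.

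Fasl (Fas ligand, with which cytotoxic cells kill targets) differed by 0.11 (SE 0.33), with values of 2.86, 2.90, 3.10 and 2.89 in KO skin, against 2.0, 2.97 and 3.5 in WT skin. The KO arrays lay within a narrow range, and WT arrays 1 and 3 were the lowest and the highest of all. Without WT array 1 the difference was -0.30, and without WT array 3 it was 0.45. Tnfsf10 (TRAIL, a ligand that induces apoptosis) was nearly level, at 2.79, 2.87, 2.81 and 2.81 in KO skin, against 2.81, 2.63 and 2.89 in WT skin, with a difference of 0.044 (SE 0.13).

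The death receptors held the one gene whose genotypes did not overlap. Tnfrsf10b, the mouse receptor of TRAIL, was at 2.92, 2.77, 2.50 and 2.72 on KO arrays 1 to 4, against 3.17, 3.29 and 2.93 on WT arrays 1 to 3. All 4 KO arrays were below all 3 WT arrays, with only a narrow gap between KO array 1 and WT array 3. The difference was -0.40 (95% interval -0.77 to -0.027), with an unadjusted p of 0.0387 and an adjusted p of 0.9995 in limma, so it did not pass. It kept its sign with each array left out (-0.50 to -0.32) and was -0.56 against WT array 2 alone, but its unadjusted p was no longer under 0.05 without KO array 2, 3 or 4 or WT array 2. Its mean lay at percentile 27.9 of all genes, in the dim part of the range.

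Tnfrsf1a (TNF receptor 1, the main receptor of inflammatory TNF signalling) had the largest difference of the superfamily in either direction, and it came from 1 array. Its log2 values were 4.17, 4.45, 4.33 and 4.33 on KO arrays 1 to 4, against 6.49, 4.33 and 4.21 on WT arrays 1 to 3. WT array 1 stood over 2 log2 units above all others, and WT arrays 2 and 3 lay inside the KO range. The difference was -0.69 (SE 0.53) with all arrays, 0.050 without WT array 1 and -1.09 without WT array 3. Tnfrsf21 (DR6) likewise had its highest value on WT array 1, at 4.17, 4.07, 3.95 and 4.07 in KO skin, against 4.54, 4.03 and 4.14 in WT skin, and its difference of -0.17 (SE 0.16) became -0.021 without WT array 1.

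Fas, the receptor of Fas ligand, had a difference of -0.0023 (SE 0.20), with values of 3.28, 3.16, 3.70 and 3.58 in KO skin, against 3.29, 3.74 and 3.26 in WT skin. Ngfr (p75, the low-affinity neurotrophin receptor) differed by 0.20 (SE 0.32). Its KO values of 3.16, 3.19, 2.99 and 3.33 lay inside the range of the WT values, 2.40, 2.74 and 3.78, and the difference was -0.090 without WT array 1 and 0.60 without WT array 3.

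The receptors without a death domain for TNF, lymphotoxin and TWEAK had a median difference of -0.068. Tnfrsf1b (TNF receptor 2) had the same value, 4.21, on 5 of the 7 arrays, and only KO array 4, at 3.93, departed from it clearly. Ltbr (lymphotoxin beta receptor) was at 5.92, 5.90, 5.96 and 5.67 in KO skin, against 5.90, 5.85 and 5.90 in WT skin, a difference of -0.024 (95% interval -0.33 to 0.28). Tnfrsf12a (Fn14, the TWEAK receptor, induced in injured tissue) differed by -0.27 (SE 0.26), which became -0.035 without WT array 1. The TWEAK gene Tnfsf12 was not analysed here.

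Genes of the RANK, BAFF and APRIL axes act on osteoclasts and B cells. Tnfrsf17 (BCMA, a receptor of plasma cells) differed by 0.39 (SE 0.30), with values of 3.82, 3.71, 3.84 and 4.36 in KO skin, against 2.90, 4.04 and 3.68 in WT skin. WT array 1 was the lowest and KO array 4 the highest, and without WT array 1 the difference was 0.069. Tnfrsf13c (BAFF receptor) was at 4.61, 4.61, 4.47 and 4.52 in KO skin, against 4.59, 4.78 and 5.10 in WT skin. Its KO arrays lay within a narrow band, below WT arrays 2 and 3 but overlapping WT array 1. The difference was -0.27 (SE 0.16), with an unadjusted p of 0.124 in limma, and was negative with any single array left out.

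Tnfrsf13b (TACI) differed by 0.14 (SE 0.15). Without WT array 1 it was 0.019. Its ligands Tnfsf13b (BAFF) and Tnfsf13 (APRIL) differed by -0.089 (SE 0.27) and -0.14 (SE 0.35). Tnfsf13 was at 2.35, 3.24, 2.34 and 2.40 in KO skin, against 3.16, 2.02 and 2.99 in WT skin: KO array 2 stood with WT arrays 1 and 3, and WT array 2 was the lowest of all. Against WT array 2 alone its difference was 0.56, of opposite sign. Tnfsf13os, which overlaps Tnfsf13 in the RefSeq table, was at 3.10, 3.06, 3.07 and 3.06 in KO skin, against 3.05, 3.04 and 3.06 in WT skin, a difference of 0.025 (SE 0.11), and did not follow Tnfsf13. Tnfsf11 (RANKL, the osteoclast factor) had one value, 2.21, on 5 of the 7 arrays, all 3 WT arrays among them. Its receptor Tnfrsf11a (RANK) differed by 0.22 (SE 0.21) and its decoy receptor Tnfrsf11b (osteoprotegerin) by 0.084 (SE 0.26). KO array 1 accounted for most of the difference of Tnfrsf11a. It was at 4.37, against 3.57 to 3.76 on the other KO arrays and 3.54 to 3.73 on the WT arrays. Without KO array 1 the difference of Tnfrsf11a was 0.051.

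The ectodermal group shapes hair follicles and glands. Edar, the ectodysplasin receptor of developing follicles, was at 3.51, 4.13, 3.44 and 3.47 in KO skin, against 2.71, 3.39 and 3.71 in WT skin. WT array 1 was the lowest and KO array 2 the highest, and the difference of 0.37 (SE 0.28) became 0.089 without WT array 1. Its ligand Eda differed by 0.27 (SE 0.28), and KO array 2 accounted for most of it: at 3.40 it stood above the other KO arrays, at 2.42 to 2.47, and without it the difference was 0.031. Eda2r, the other ectodysplasin receptor, differed by -0.011 (SE 0.23). Tnfrsf19 (TROY, expressed in follicle stem cells) was at 3.81, 4.14, 3.98 and 3.52 in KO skin, against 5.23, 3.64 and 4.00 in WT skin, with WT array 1 over 1 log2 unit above the rest. Its difference was -0.43 (SE 0.38), and 0.041 without WT array 1.

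Markers of the hair follicle were high on that same array. The mean log2 level of the 8 follicle markers was 3.46 to 4.61 on the KO arrays and 7.75, 4.97 and 4.03 on WT arrays 1, 2 and 3, with 8 of 8 markers lower in KO by mean difference and a median difference of -1.31. Without WT array 1 the median was -0.36, and Krt35 and Hoxc13, at 0.024 and 0.072, were no longer below 0. Krt33b, Padi3, Krt25 and Msx2, with the smallest p of the list, were -0.32, -0.39, -1.24 and -0.39 there. Against WT array 2 alone the median was -0.51. Only Krt33b had an unadjusted p under 0.05 in limma (0.0436, adjusted p 0.9995), against 1.88% of all genes. Only Padi3 had genotypes that did not overlap, against 1.91% of all genes. The part of follicle content in the values of Tnfrsf19, Edar and Tnfrsf1a was not tested. In whole skin, fewer cells of a type and less RNA per cell cannot be told apart.

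The mouse-specific receptors Tnfrsf22, Tnfrsf23 and Tnfrsf26 are neighbours on chromosome 7, and the first pair are TRAIL-binding decoys and close in sequence; cross-hybridisation between their probes was not tested. Tnfrsf23 was at 4.53, 4.53, 4.92 and 3.38 in KO skin, against 4.53, 5.18 and 4.24 in WT skin, a difference of -0.31 (SE 0.40). KO array 4 was the lowest and WT array 2 the highest, and 3 of the 7 arrays shared 1 value. Tnfrsf22 was at 4.64, 4.92, 4.75 and 5.51 in KO skin, against 4.44, 5.13 and 4.96 in WT skin, and here KO array 4 was the highest. Its difference was 0.11 (SE 0.26), and that of Tnfrsf26 was -0.073 (SE 0.16).

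**Figure D3:**
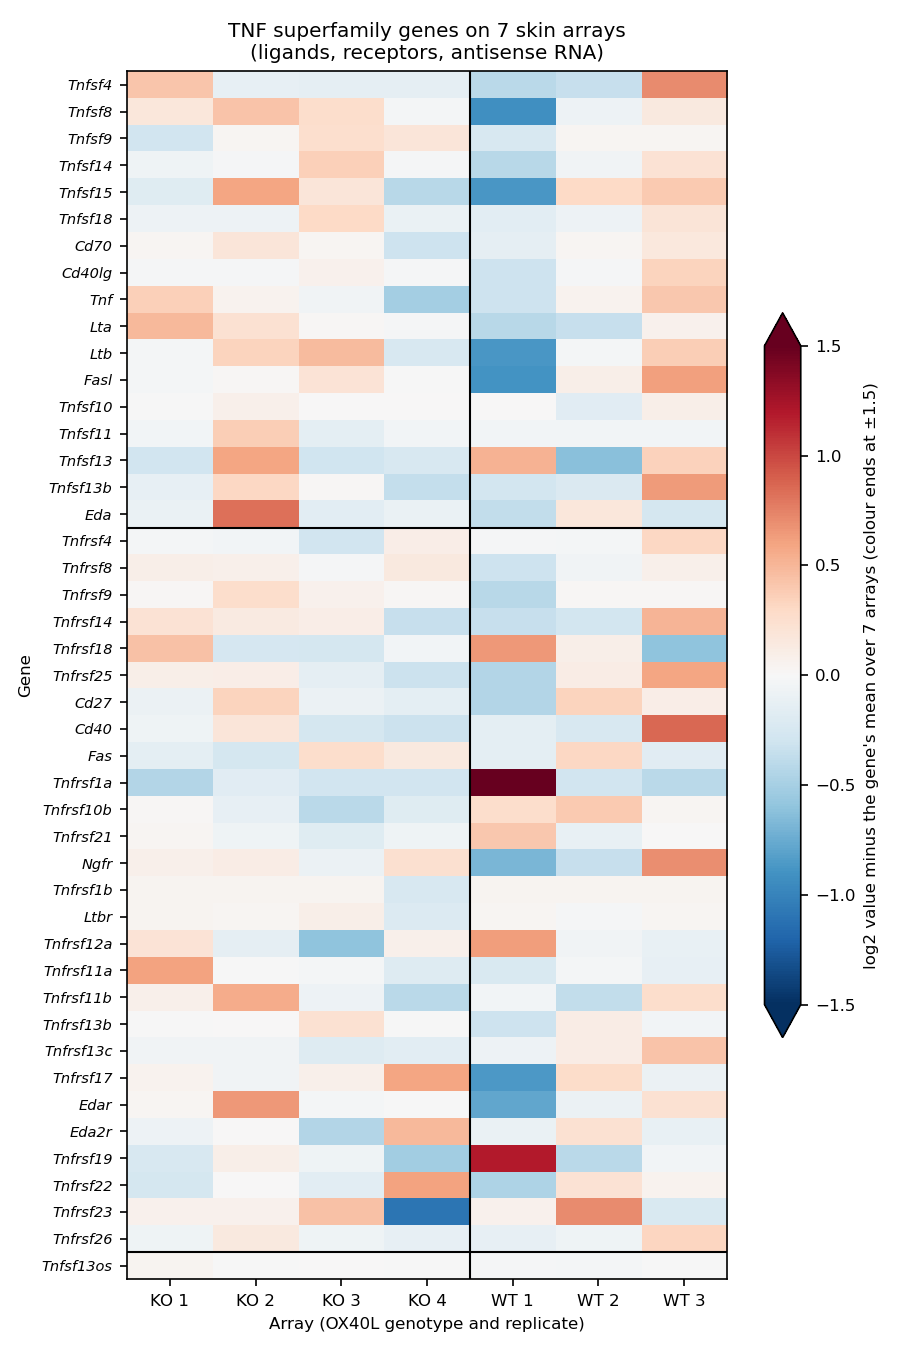
Log2 value of each of the 45 genes (rows; ligands, receptors and the antisense transcript from top to bottom) on each array (columns; KO left of WT), shown as the deviation from the gene's mean over the 7 arrays. The WT arrays 1 and 3 carry the strongest colours, with Tnfrsf1a and Tnfrsf19 highest on WT array 1 and 21 genes lowest there.

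The highest and lowest values fell unevenly over the arrays. A KO array was the highest for 24 of 45 members (53.3%, against 36.8% of all genes) and the lowest for 19 (42.2%, against 31.9%). KO array 2 was the highest for 11 (against 7.57% of all genes), and KO array 1 for only 3 (against 11.1%). KO arrays 3 and 4 were the lowest for 7 and 9 (against 7.01% and 10%). WT array 1 was the lowest of the 7 for 21 of 45 members (46.7%, against 39.1% of all genes) and the highest for 5 (11.1%, against 25.3%). WT array 3 was the highest for 13 (28.9%, against 30.1%) and the lowest for 1, Tnfrsf18 (2.22%, against 19.2%). The ligands showed this most plainly: their mean log2 level was 2.83 to 3.19 on the KO arrays, against 2.61, 2.89 and 3.23 on WT arrays 1, 2 and 3, so that WT arrays 1 and 3 lay on either side of the KO range. The receptors averaged 3.76 to 3.91 on the KO arrays, against 3.82, 3.87 and 3.95 on WT arrays 1, 2 and 3. By mean value the median ligand lay at percentile 29.2 of all genes and the median receptor at percentile 55.1; the part of low signal in this was not tested.

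Identical values were common. The same value on at least 2 arrays was found in 21 of 45 members (46.7%, against 54.3% of all genes), and on at least 4 arrays in 4: Tnfsf11, Tnfrsf1b, Cd40lg and Tnfrsf9 (8.89%, against 10% of all genes). Such ties can understate the spread between samples.

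With WT arrays 1 and 3 left out, KO was set against WT array 2 alone, which was assumed to vary like the KO arrays. No member passed there (smallest adjusted p 0.510 in limma). The sign was kept in 30 of 45 members and turned in 15, and 4 had a difference over 0.5 in size: Tnfrsf23 (-0.84), Tnfsf13 (0.56), Tnfrsf10b (-0.56) and Lta (0.53). Of the members with the largest differences over all arrays, Tnfrsf10b, Lta and Tnfsf8 kept their sign, while Tnfrsf19 and Tnfrsf17 turned and Tnfrsf1a came to -0.0097.

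Ligands and their receptors were set side by side for 24 known pairs. The 2 differences had the same sign in 10 pairs and opposite signs in 14, and these pairs share members. For OX40L and OX40 they were 0.020 and -0.16, for CD30 ligand and CD30 0.49 and 0.17, and for TRAIL and its receptor 0.044 and -0.40. For Eda and Edar they were 0.27 and 0.37, both highest on KO array 2. Of the 44 protein-coding members, 23 lay in 9 groups of neighbours with at most 10 other protein-coding genes between members. Tnfsf18 and Fasl, the neighbours of Tnfsf4 on chromosome 1, differed by 0.024 and 0.11, and Tnfrsf18, the neighbour of Tnfrsf4 on chromosome 4, by -0.076.

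No matched gene of the intracellular part of the pathway passed the test either. Of 36 adaptors, kinases and NF-kB subunits listed, Traf3, Ripk1, Chuk and Nfkb1 were not matched, so nothing is said of them. The other 32 were matched on the array, and 0 of these had an adjusted or unadjusted p under 0.05 in limma. By mean difference 8 were above 0 and 24 below, with a median of -0.053, against 0.0096 over all genes. The smallest p belonged to Tnfaip3 (A20, an inhibitor of NF-kB signalling), at -0.35 (SE 0.21), followed by Map3k14 (NIK, the kinase of the non-canonical pathway), at -0.41 (SE 0.25), Tradd (the death domain adaptor of TNF receptor 1), at 0.19 (SE 0.14), and Ikbkb (IKK beta), at -0.32 (SE 0.25). Tnfaip3 rested on WT arrays 1 and 3 and was 0.050 without both, and Map3k14 was -0.14 without WT array 3. Without WT array 1 the median of the list was -0.011, and Ikbkb came to -0.0086: its values were 3.46 to 3.67 on the KO arrays, against 4.53, 3.67 and 3.52 on WT arrays 1, 2 and 3.

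Among 25 genes that NF-kB is known to induce, 10 were above 0 and 15 below, with a median of -0.063, and 0 had an unadjusted p under 0.05, against 1.88% of all genes. Cxcl2, a neutrophil chemokine, was the one of the 25 whose genotypes did not overlap (against 1.91% of all genes), at 4.41, 4.79, 4.83 and 4.68 in KO skin, against 4.88, 4.85 and 5.58 in WT skin. The gap between the genotypes was narrow, and the difference of -0.42 (SE 0.22) became -0.17 against WT array 2 alone. Il1b, the inflammatory interleukin, differed by -0.29 (SE 0.20), Ccl5, a T cell chemokine, by 0.37 (SE 0.27), and Nfkbiz, an NF-kB cofactor, by -0.20 (SE 0.15). Il1b was -0.10 without WT array 3, and Nfkbiz was -0.074 without WT array 1.

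Markers of the immune cells that carry many of these ligands and receptors were also measured. The 10 matched T cell markers of 11 had a mean log2 level of 3.59 to 3.77 on the KO arrays and 3.55 to 3.73 on the WT arrays, with 5 above 0 and 5 below by mean difference. The genotypes did not overlap in 2 of the 10, Cd3d and Cd3g, both higher in KO, against 1.91% of all genes. Cd3d, a chain of the T cell receptor complex, was at 3.15 to 3.64 on the KO arrays and 2.66 to 3.01 on the WT arrays, with an unadjusted p of 0.0134 and an adjusted p of 0.9995 in limma. Cd3g, another chain of that complex, was at 4.27 to 4.39 on the KO arrays and 3.83 to 4.25 on the WT arrays, and its difference of 0.22 (SE 0.15) became 0.090 without WT array 3. The other chains of that complex on the list, Cd3e and Trac, did not follow: they differed by -0.089 (SE 0.25) and -0.18 (SE 0.25), with overlapping genotypes. Cd3e was 0.072 without WT array 3, and Trac was 0.11 without WT array 1. Cd4 differed by -0.24 and, without WT array 3, by -0.089, and Foxp3, the factor of regulatory T cells, differed by 0.10. B cell markers, 5 matched of 6, ran from 3.07 to 3.32 on the KO arrays and from 2.58 on WT array 1 to 3.57 on WT array 3. Macrophage markers (8 of 8) ran from 4.94 to 5.28 in KO skin and from 4.80 to 5.43 in WT skin, with 2 above 0 and 6 below. Of these Itgam (CD11b) had the smallest p, with a difference of -0.55 (SE 0.22), an unadjusted p of 0.0426 in limma and overlapping genotypes. NK cell markers (6 of 6) ran from 4.22 to 4.37 in KO skin and from 3.55 on WT array 1 to 4.38 on WT array 3, with 6 above 0 and 0 below. That split rested partly on WT array 1: without it Klrb1c was -0.37 and Prf1 -0.11, and the other NK cell markers stayed above 0. Ncr1 (NKp46, an activating receptor of NK cells) was the 1 of the 6 whose genotypes did not overlap, against 1.91% of all genes. It was higher on every KO array than on every WT array, with a difference of 0.55 (SE 0.22), 0.35 without WT array 1, and an unadjusted p of 0.0403 in limma. The adjusted p was 0.9995 for both Itgam and Ncr1. The part of cell content in the values of the superfamily was not tested.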

How the data were processed

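Expression was measured on Affymetrix whole-transcript arrays, 1 per sample, from total RNA. The deposited table holds log2 expression, made by the authors with RMA per the submitters' processing notes; RMA's version and any genome build are not given in the sources used here. RMA as usually run ends in a median polish, which can return equal values on several arrays for a gene. Exactly equal values also recurred between different genes. One was 2.21, in both Tnfsf11 and Tnfsf18, and another 4.21, in Tnfrsf1b and on WT array 3 in Tnfrsf1a. The source of the equal values was not tested. All values were used as deposited.

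Of 25206 probe sets, 23185 carried a single symbol in GEO's platform annotation, 2021 were unnamed here and 0 carried several. All 45 members matched the RefSeq table of GRCm38.p6 by Entrez number. Genotypes were compared over all named genes with limma 3.58.1 in R 4.3.3 (lmFit and eBayes, 4 KO against 3 WT arrays, two-sided, Benjamini-Hochberg adjustment at 0.05). No p was adjusted over the members alone and no list was tested. Intervals are 95% intervals from the moderated fit. The procedure was tested on simulated data, drawn as independent normal values with the same variance in both genotypes and no array standing apart. That test therefore does not cover the uneven spread of the WT arrays. Figures were drawn with matplotlib 3.10.9 in Python 3.11.15.

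Named genes were Tnfsf4, Tnfrsf4, the members of the ligand and receptor pairs, every member with an unadjusted p under 0.05 or without overlap, the 6 largest differences in each direction, the 4 largest SDs in WT, and up to 4 genes with the smallest p of each list described. Members named beyond that rule were chosen after their values were seen. The members and lists were chosen with earlier results of these data known. Nothing in the labels ties each sample to its own animal, so p-values reflect only how these samples vary, and part of that may be technical. Precision is limited by the small number of arrays. Alternatives tried were an intensity trend with robust moderation, filters on the dimmest 30% or 50% of genes, quantile normalization again, centring of array medians, array weights, the replicate number or the suffix of the sample code as a block, the array SD as a covariate, all probe sets, leaving out each array in turn, and leaving out WT arrays 1 and 3 together.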

Additional observations from a re-analysis of the deposited data

Results flagged for a closer look

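In 10 of 45 members (22.2%) 1 KO array stood apart from the other 3 by Dixon's test at the 95% level, against 20.3% of all genes. The share of members lay near that of all genes. A rate of about 1 in 20 holds for independent normal values, but equal values were common here. The test's ratio is at its highest where the other 3 values are equal, so 1 in 20 is no reference for these counts. On KO array 1 this was Tnfsf4 at 3.35 (others 2.81 to 2.82; difference -0.11 without it). On KO array 2 these were Cd27 at 3.54 (others 3.06 to 3.11; difference -0.11 without it), Eda at 3.40 (others 2.42 to 2.47; difference 0.031 without it), Edar at 4.13 (others 3.44 to 3.51; difference 0.21 without it) and Tnfsf13 at 3.24 (others 2.34 to 2.40; difference -0.36 without it). On KO array 3 these were Cd40lg at 2.11 (others 2.03; difference -0.022 without it), Tnfrsf13b at 2.53 (others 2.30 to 2.31; difference 0.077 without it), Tnfsf14 at 3.34 (others 2.92 to 2.96; difference 0.051 without it) and Tnfsf18 at 2.59 (others 2.20 to 2.21; difference -0.071 without it). On KO array 4 this was Tnfrsf1b at 3.93 (others 4.21 to 4.22; difference 0.0026 without it).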

How the results depend on the processing

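The count of members at an adjusted p under 0.05 was 0 under every alternative but one. Array weights by the planned method did not converge, with a weight of 75.4 on WT array 2 and of 0.106 and 0.109 on WT arrays 1 and 3, so that KO was set against nearly 1 array; there 6 members passed, beside 4032 of all genes, and 13 members and 7364 genes had an unadjusted p under 0.05. Weights estimated gene by gene, chosen after seeing the data, gave 0 members, with 4 members and 3003 genes unadjusted. Over all genes the adjusted count was 0 in place of 1 with trend and robust moderation, quantile normalization, centred medians, either block, the SD covariate, all probe sets, WT arrays 1 and 3 left out, or any single array left out (0 to 0). The unadjusted count of 436 genes was 219 without the dimmest 50%, 716 after quantile normalization, 251 with the replicate block, 278 with the code suffix block, 1765 with the array SD, 2024 without WT arrays 1 and 3 and 249 to 2786 with single arrays left out (249 and 259 without KO arrays 1 and 3, and 738, 807 and 2786 without WT arrays 1, 2 and 3).

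The unadjusted count of 1 member was 0 without the dimmest 30% or 50% (33 and 20 members left, Tnfrsf10b not among them) and with either block, 5 with the array SD, 2 without WT arrays 1 and 3, and 0 to 4 with single arrays left out (0 without KO arrays 2, 3 or 4 or WT array 2, and 4 without WT array 3). Members without overlap numbered 0 with either filter on dim genes, 2 after quantile normalization (4.44%, against 5.03% of all genes), 3 with centred medians (6.67%, against 4.12%), 14 against WT array 2 alone (31.1%, against 37.5%) and 1 to 8 with single arrays left out. These were 2 and 3 without KO arrays 3 and 4 (against 3.14% and 3.86% of all genes), and 3, 4 and 8 without WT arrays 1, 2 and 3 (6.67%, 8.89% and 17.8%, against 7.84%, 8.59% and 21.4%). The median of the receptors was -0.11 without the dimmest 50% and -0.091 to 0.054 with single arrays left out.

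Signs of differences that had not passed turned as follows, and the cause was not tested. After quantile normalization these were Tnfsf4 -0.057, Tnfsf18 -0.048, Tnfsf10 -0.012, Tnfsf11 -0.0097, Tnfrsf18 0.083, Cd27 -0.043, Ltbr 0.015, Eda2r 0.012 and Tnfsf13os -0.0067. With centred medians it was Cd27 -0.0097. With planned weights these were Tnfsf15 -0.22, Cd40lg 0.022, Fasl -0.030, Tnfsf13 0.59, Tnfsf13b 0.20, Eda -0.025, Cd27 -0.31, Cd40 0.14, Tnfrsf21 0.027, Ltbr 0.021, Tnfrsf13b -0.052, Tnfrsf17 -0.13, Tnfrsf19 0.25, Tnfrsf22 -0.19 and Tnfrsf26 0.048, and with gene-by-gene weights Tnfsf15 -0.16, Cd40lg 0.018, Fasl -0.010, Tnfsf13 0.49, Tnfsf13b 0.17, Cd27 -0.26, Cd40 0.081, Ltbr 0.017, Tnfrsf13b -0.025, Tnfrsf17 -0.066, Tnfrsf19 0.16, Tnfrsf22 -0.15 and Tnfrsf26 0.033. With the replicate block these were Cd70 0.063, Cd40lg 0.0051, Tnf 0.073, Tnfsf13b 0.016, Tnfrsf1b 0.0026, Ltbr 0.040, Tnfrsf22 -0.072 and Tnfrsf23 0.0091. With the code suffix as a block these were Tnfsf15 -0.0032, Cd27 -0.054 and Eda2r 0.0093. With the array SD these were Tnfsf4 -0.099, Tnfsf15 -0.041, Tnfsf18 -0.014, Fasl -0.038, Tnfrsf14 -0.034, Tnfrsf18 0.046, Cd27 -0.056, Fas 0.0065 and Eda2r 0.0049. Without WT arrays 1 and 3 these were Tnfsf15 -0.26, Cd40lg 0.020, Fasl -0.036, Tnfsf13 0.56, Tnfsf13b 0.17, Eda -0.057, Cd27 -0.33, Cd40 0.12, Tnfrsf21 0.032, Ltbr 0.011, Tnfrsf13b -0.057, Tnfrsf17 -0.11, Tnfrsf19 0.22, Tnfrsf22 -0.17 and Tnfrsf26 0.039. With single arrays left out the ranges that crossed 0 were Tnfsf4 -0.18 to 0.38, Tnfsf14 -0.017 to 0.30, Tnfsf15 -0.31 to 0.33, Tnfsf18 -0.071 to 0.13, Cd70 -0.11 to 0.063, Cd40lg -0.16 to 0.16, Tnf -0.26 to 0.094, Ltb -0.035 to 0.58, Fasl -0.30 to 0.45, Tnfsf10 -0.028 to 0.10, Tnfsf11 -0.033 to 0.14, Tnfsf13 -0.49 to 0.080, Tnfsf13b -0.25 to 0.20, Tnfrsf14 -0.089 to 0.34, Tnfrsf18 -0.40 to 0.23, Tnfrsf25 -0.42 to 0.099, Cd27 -0.21 to 0.17, Cd40 -0.47 to 0.078, Fas -0.091 to 0.15, Tnfrsf1a -1.09 to 0.050, Ngfr -0.090 to 0.60, Tnfrsf1b -0.093 to 0.0026, Ltbr -0.056 to 0.040, Tnfrsf11b -0.091 to 0.24, Eda2r -0.17 to 0.13, Tnfrsf19 -0.76 to 0.041, Tnfrsf22 -0.089 to 0.25, Tnfrsf23 -0.52 to 0.0091 and Tnfrsf26 -0.16 to 0.068. The signs of Lta, Tnfsf8, Tnfsf9, Tnfrsf4, Tnfrsf8, Tnfrsf9, Tnfrsf10b, Tnfrsf11a, Tnfrsf12a, Tnfrsf13c and Edar turned under no alternative run.

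Same-numbered KO and WT arrays did not deviate together (correlations of -0.086, -0.15 and 0.034 for numbers 1, 2 and 3). With only 3 WT arrays, of which 1 and 3 stood apart, these correlations cannot settle whether the numbers pair the samples. The replicate block, to which KO array 4 adds nothing since no WT array shares its number, changed no adjusted call of a member.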
